A study of Mus musculus with 12 samples.

Results

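The NF-kB genes described here are the 5 subunits Rela, Relb, Rel, Nfkb1 and Nfkb2, the 3 inhibitors Nfkbia, Nfkbib and Nfkbie, and the kinase Ikbkb. They were taken by symbol, and all 9 were among the 51467 genes counted and among the 14033 genes that had enough reads to be tested. RNA came from mouse embryonic stem cells (ESCs) that were either wild-type (the V6.5 line) or lacked Dgcr8, whose product is needed to process primary microRNA (miRNA) transcripts. All cells grew in serum with LIF and 2i, and all, wild-type cells included, were labelled for 30 min with 500 uM 4-thiouridine (4sU), an analogue of uridine. RNA made during the pulse was captured through its 4sU and gives nascent transcription (4sU libraries), and RNA depleted of ribosomal RNA gives the steady-state level (total libraries). Each genotype had 3 replicates of both library types, 12 libraries in all, and each genotype is represented by 1 line, so that a difference between lines and the loss of Dgcr8 cannot be told apart. The sources do not say whether replicates were separate cultures, and p-values measure only the spread between these samples.

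NF-kB is a family of dimeric transcription factors. In resting cells IkB proteins, the products of Nfkbia, Nfkbib and Nfkbie, hold the dimers in the cytoplasm, until the IkB kinase (IKK) complex phosphorylates them and they are ubiquitinated and degraded. In the canonical arm this frees dimers such as those of RelA with the Nfkb1 product, and in the non-canonical arm the Nfkb2 precursor is processed to a partner of RelB. Nfkbia and Nfkb2 are also known as target genes of the factor, and Rela has been described as a target of miRNAs of the miR-290 cluster in pluripotent cells.

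The most abundant miRNAs of ESCs, the ESC-specific cell cycle (ESCC) family, share a seed, and their loss in Dgcr8 KO cells is the reason to look first at which of the 9 transcripts could pair with it. The family members below, from RefSeq (GRCm38.p6), are shown with the seed, bases 2 to 8, in capitals.
miR-294-3p: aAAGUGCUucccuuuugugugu
miR-291a-3p: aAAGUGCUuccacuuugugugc
miR-295-3p: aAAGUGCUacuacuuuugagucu
miR-302b-3p: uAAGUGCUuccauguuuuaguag
miR-302d-3p: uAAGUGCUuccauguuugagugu

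In the longest 3′ UTR of each gene in GENCODE M21, the hexamer GCACTT, which pairs with the core of this seed, was present in 1 of the 9 genes. This was Ikbkb, with 3 copies in a 3′ UTR of 1622 bases. Of 11809 tested genes with a 3′ UTR, 34% held at least 1 copy and 4.3% held 3 or more. The 3 Ikbkb sites are shown because none of the other 8 genes had one, with the match to the seed in capitals (mm10, minus strand). The last is extended by the A opposite base 8 of the miRNAs above. Of the tested genes with a 3′ UTR, 21.3% have this heptamer or GCACTTA. With the base before the hexamer, the first site pairs with bases 2 to 8 of miR-290a-3p (GGCACTT) and the second with those of miR-291b-3p (TGCACTT). These heptamers occurred in 8.06% and 11.9% of 21022 genes with a 3′ UTR.
Ikbkb, chr8:22661003-22661030: ccacgatccagGCACTTtcagacagagc
Ikbkb, chr8:22660787-22660814: actacttgcttGCACTTtagccagagaa
Ikbkb, chr8:22660210-22660238: atgcaggtacaAGCACTTgcagcagcgac
Of the other core IKK genes, which are not among the 9, Ikbkg had 4 copies of the hexamer in a 3′ UTR of 5495 bases, 3 of them as AGCACTT, and Chuk had 0.

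Because Rela has been described as a target of this cluster, the 3′ UTRs were also searched for the complement of bases 2 to 8 of all 24 mature miRNAs of the miR-290 and miR-302 clusters in the RefSeq table, which have 14 different seeds. Ikbkb and Rel each held a match to 6 of the 14, Rela and Nfkbie to 2, Relb and Nfkb2 to 1, and Nfkb1, Nfkbia and Nfkbib to 0. The single heptamers occurred in 1.32% (for miR-293-3p) to 21% (for miR-290b-5p) of 21022 genes with a 3′ UTR. How many of the 14 other genes match was not counted, so these numbers do not mark a gene as unusual. The 3′ UTR of Rel has 5418 bases, longer than in 96.6% of tested genes. The matches in Rela are shown. The heptamer GCGGCAC, for miR-293-3p, occurred in the 3′ UTR of 1.32% of 21022 genes, and GGGCACT, for miR-290b-3p, in 7.64%, Ikbkb among them. Both lie in the Rela 3′ UTR of 714 bases, on the plus strand of mm10 chromosome 19.
miR-293-3p, bases 2 to 8 in capitals: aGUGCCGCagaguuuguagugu
Rela, chr19:5647530-5647556: tctctctgggGCGGCACgttttactct
Rela, chr19:5647445-5647471: ccaggtttcaGGGCACTgaagccttcc

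A second feature of these transcripts was the AU-rich pentamer ATTTA, known from short-lived mRNAs. Nfkbia held 2 copies in a 3′ UTR of 512 bases, both inside the heptamer TATTTAT, and 10.8% of tested genes had 2 or more copies of that heptamer. Rel had 12 copies of ATTTA, in the longest 3′ UTR of the set at 5418 bases, longer than in 96.6% of tested genes, and 4.51% of tested genes had 12 or more. Nfkb1 had 5 copies, Ikbkb 2 and Nfkb2 1, and none was found in Rela, Relb, Nfkbib or Nfkbie. At least 1 copy was present in 70.6% of tested genes. The heptamer TATTTAT also had 2 copies in Rel and 1 in Ikbkb, and 30.7% of tested genes had at least 1. A link of these motifs to stability was not tested.

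Promoters were searched for the NF-kB consensus motif on both strands, in the 300 bases that RefSeq gives from 250 bases before to 50 after a gene start. The table held 6 of the 9 genes, and 3 of them, Nfkbia, Nfkb2 and Rel, had a match, against 6.55% of 27025 genes. The matches in these 3 genes are shown. Capitals mark the match and each is written on the strand that reads it. The first Nfkb2 match reads the same on both strands, the third lies at an alternative start, and 2 overlapping matches in Rel are given as one line with the second in capitals.
Nfkbia, chr12:55492667-55492676: gtcaggcgcgGGGAATTTCCaagccagtca
Nfkb2, chr19:46304698-46304707: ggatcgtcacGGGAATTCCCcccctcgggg
Nfkb2, chr19:46304726-46304735: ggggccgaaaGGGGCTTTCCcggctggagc
Nfkb2, chr19:46305705-46305714: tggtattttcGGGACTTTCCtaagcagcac
Rel, chr11:23771052-23771061: gggaggggggGGGATTTCCCgctgcttacg
Rela, Nfkbib and Nfkbie had no match in their window, and Relb, Nfkb1 and Ikbkb had no entry. A match is a description of the letters and not evidence of binding, and a link between matches and the changes below was not tested.

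The libraries held 6873708 to 9295245 counts in wild-type total, 7184551 to 9215024 in Dgcr8 KO total, 4593914 to 6005526 in wild-type 4sU and 4775267 to 4998675 in Dgcr8 KO 4sU. Dgcr8 RNA was lower in the libraries labelled Dgcr8 KO, at 32.0 to 34.1 CPM against 92.5 to 111 CPM in wild-type total RNA (CPM are counts scaled by library size and TMM factor). All 10 ESC markers were tested, and their summed level in total RNA ranged from 4794 to 5024 CPM in wild-type and from 4760 to 4903 CPM in Dgcr8 KO. Pou5f1, Sox2, Zfp42 and Utf1 were higher in Dgcr8 KO total RNA and Nanog, Esrrb, Klf4, Sall4 and Dppa5a lower (limma adjusted p under 0.05). Their log2 changes ran from -0.46 (Sall4) to 0.39 (Utf1), and Tdgf1 did not pass. In 4sU RNA the sum was 5451 to 5549 CPM in wild-type and 6236 to 6883 CPM in Dgcr8 KO. Of 8 macrophage and leukocyte markers, Ptprc, Adgre1 and Tyrobp had 0 counts in every total library, which allows up to 3 per library by counting error alone. The summed level of the 8 was higher in Dgcr8 KO, like several of the NF-kB genes, and went from 59.6 to 63.9 CPM in wild-type to 107 to 110.5 CPM in Dgcr8 KO total RNA, nearly all of it in Laptm5 and Cd68; its part in the results was not tested. The 8 fibroblast markers summed to 10.97 to 13.3 CPM in wild-type and 5.45 to 6.78 CPM in Dgcr8 KO total RNA, with Col3a1, Dcn and Postn at 0 counts in both, and the 8 primitive endoderm markers to 66.5 to 76.3 and 33.2 to 38.9 CPM. Most of the endoderm sum was Lamb1 (means of 60.8 and 24.2 CPM), while Pdgfra rose by 2.20 in log2 (limma adjusted p = 1.54e-05) and Gata4 had 0.36 (limma adjusted p = 0.0990). In bulk RNA, fewer cells of a type and less RNA per cell cannot be told apart.

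To compare the genes with each other, CPM were divided by exonic length. In wild-type total RNA, Nfkbia (26.4 ± 1.97 CPM per kb, SD, n = 3) and Relb (26.0 ± 1.25) were the most abundant and did not differ beyond their spread. Their levels stood above those of 75.9% and 75.5% of tested genes. A middle group followed, with Nfkb1 at 8.51 ± 1.13, Nfkb2 at 7.89 ± 1.17, Rela at 7.50 ± 0.462, Ikbkb at 6.84 ± 0.297 and Nfkbib at 6.66 ± 0.681 CPM per kb, in which the replicates of neighbours in this order overlapped, except that the lowest value of Rela (7.23) stood above the highest of Ikbkb (7.13). Nfkbie (1.62 ± 0.568) and Rel (1.19 ± 0.178) were lowest, and their replicates overlapped each other too. In Dgcr8 KO total RNA, Relb (43.9 ± 1.86) and Nfkbia (42.4 ± 2.94 CPM per kb) again led, with overlapping replicates, and Nfkb2 (14.1 ± 0.744) then stood above Nfkb1 (11.96 ± 0.679), with no overlap between their replicates.

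**Figure D1:**
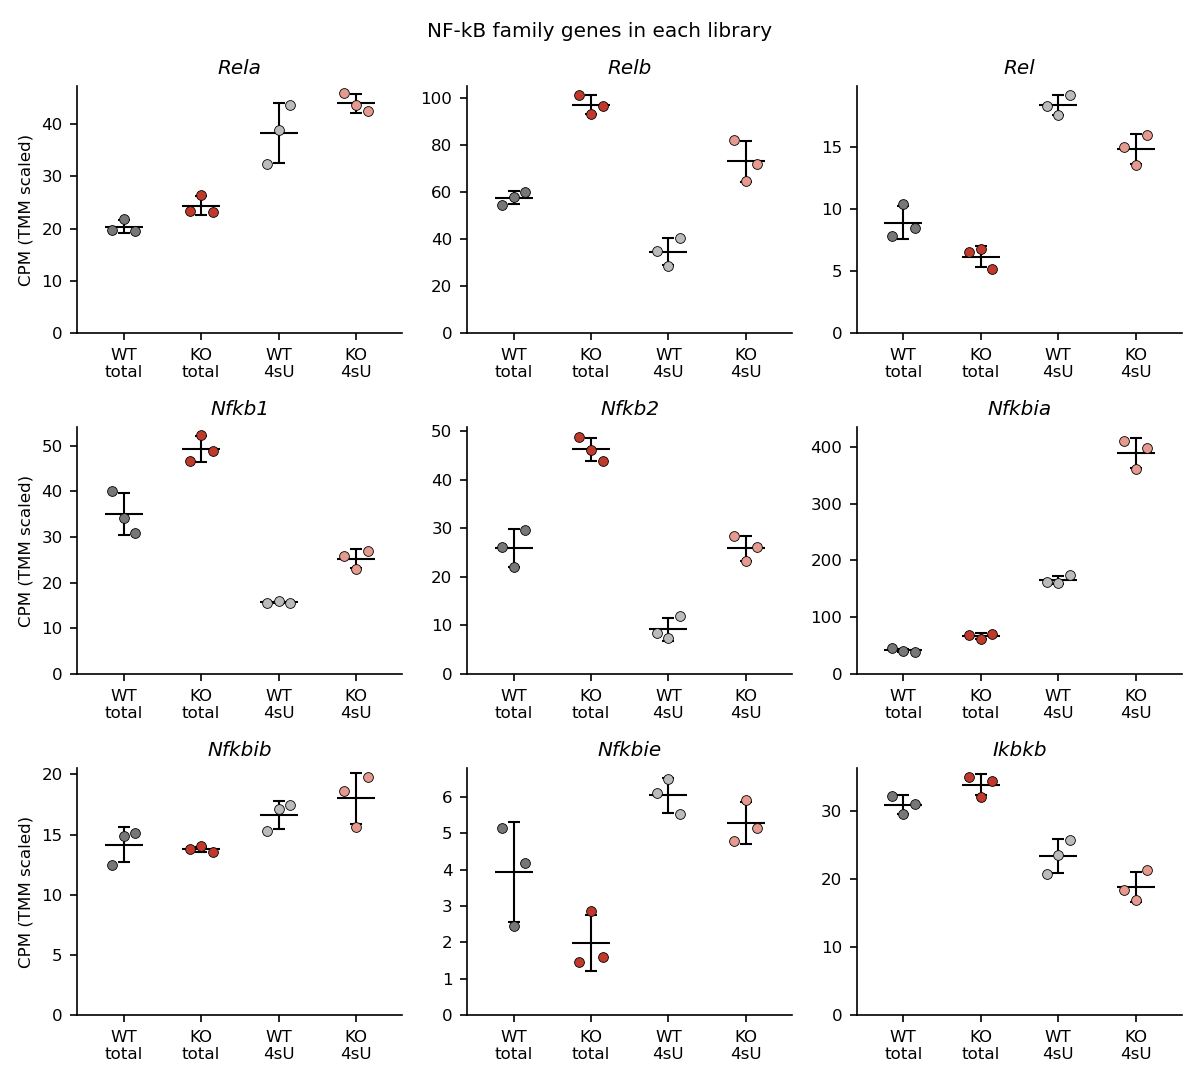
CPM (scaled by library size and TMM factor; each panel has its own axis from 0) of the 9 NF-kB genes in each library. Points are the 3 replicates of a group, and the bars are the mean and SD. Relb, Nfkb1, Nfkb2 and Nfkbia lie higher in all 3 Dgcr8 KO libraries than in all 3 wild-type libraries of both library types, Rel lies lower in both, and Nfkbib overlaps in both.

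The first comparison asked which NF-kB transcripts differ at steady state between wild-type and Dgcr8 KO ESCs. Relb, Nfkb1, Nfkb2, Nfkbia and, least, Rela were higher in Dgcr8 KO total RNA, and Rel and Nfkbie were lower. These 7 passed the test across all genes (limma, Benjamini-Hochberg adjusted p under 0.05), where 63.9% of all genes tested passed, 27.2% higher and 36.7% lower. A call further needed a log2 change beyond 1 in either direction, and 0 of the 9 genes were called at that size, against 17.2% of all genes (9.33% higher and 7.82% lower). With limma 7 of 9 genes had an unadjusted p under 0.05, and edgeR and DESeq2 also called 0. In 6 of 9 genes the replicates of the genotypes did not overlap, 5 higher and 1 lower in Dgcr8 KO, and 68.8% of all genes had no overlap (29.2% higher and 39.6% lower). The median log2 change of the 9 genes was 0.25, beside -0.09 for all genes.

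Relb (mm10 chr7:19606217-19629438, minus strand), the non-canonical partner subunit, had 54.5, 57.9 and 59.95 CPM in the wild-type total libraries and 101, 93.2 and 96.6 CPM in Dgcr8 KO. All 3 Dgcr8 KO libraries stood well above all 3 wild-type libraries. The log2 change was 0.75 (SE 0.0790, limma adjusted p = 7.2e-10), a 1.68-fold rise.

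Nfkb2 (mm10 chr19:46304737-46312090, plus strand), which encodes the precursor of p52, had 26.1, 22.1 and 29.7 CPM in wild-type and 48.8, 46.1 and 43.9 CPM in Dgcr8 KO total RNA, again with no overlap. Its log2 change was 0.84 (SE 0.101, limma adjusted p = 1.08e-08), the largest rise of the 9 genes in total RNA, with an interval of 0.64 to 1.05 that overlapped that of Relb (0.59 to 0.91). Its exons overlap those of Psd on the opposite strand, and counting was strand-specific.

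Nfkb1 (mm10 chr3:135584655-135691546, minus strand), the p50 precursor, had 40.1, 34.3 and 30.9 CPM in wild-type and 46.7, 52.3 and 48.9 CPM in Dgcr8 KO total RNA. The gap between the genotypes was smaller here, though the groups still did not overlap. The log2 change was 0.51 (SE 0.0860, limma adjusted p = 5.04e-06).

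Nfkbia (mm10 chr12:55489410-55492647, minus strand) encodes IkB-alpha, the inhibitor that the pathway itself re-synthesizes. Its total RNA was 45.1, 41.0 and 39.0 CPM in wild-type and 69.2, 61.5 and 69.9 CPM in Dgcr8 KO. Every Dgcr8 KO library lay above every wild-type library, and the log2 change was 0.69 (SE 0.0826, limma adjusted p = 1.14e-08).

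Rela (mm10 chr19:5637483-5648130, plus strand), the main activating subunit of the canonical arm, moved little. It had 19.7, 21.8 and 19.6 CPM in wild-type and 23.4, 26.5 and 23.2 CPM in Dgcr8 KO total RNA. The groups did not overlap but the log2 change was 0.25 (SE 0.111, 95% interval 0.03 to 0.48, limma adjusted p = 0.0479). The test was no longer passed without replicate 1 or 3 of wild-type and without replicate 1 or 2 of Dgcr8 KO, with limma adjusted p from 0.0541 to 0.194, and with no filter on low counts (0.0803).

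Rel (mm10 chr11:23736847-23770970, minus strand), the subunit c-Rel best known from lymphocytes, went the other way. It had 7.81, 10.4 and 8.48 CPM in wild-type and 6.55, 6.75 and 5.20 CPM in Dgcr8 KO total RNA. All Dgcr8 KO values were below all wild-type values. Its log2 change of -0.52 (SE 0.172, limma adjusted p = 0.00871) no longer passed without replicate 2 of wild-type (0.0620) or replicate 3 of Dgcr8 KO (0.0574).

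The inhibitors other than Nfkbia did not rise with it. Nfkbib (mm10 chr7:28758251-28766640, minus strand), encoding IkB-beta, had 12.5, 14.9 and 15.1 CPM in wild-type and 13.8, 14.01 and 13.6 CPM in Dgcr8 KO, fully overlapping. Its log2 change was -0.05 (95% interval -0.30 to 0.21, limma adjusted p = 0.761), so that a change of the size seen for Nfkbia lay outside its interval. With library size as the only scaling the estimate was 0.00559, on the other side of 0. Its exons overlap Ccer2 on the opposite strand.

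Nfkbie (mm10 chr17:45555716-45563169, plus strand), encoding IkB-epsilon, had few reads, with 33, 20 and 36 counts in wild-type and 13, 22 and 11 counts in Dgcr8 KO total libraries. This gave 5.15, 2.44 and 4.18 CPM against 1.47, 2.85 and 1.59 CPM, and the groups overlapped through replicate 2 of both. The log2 change was -0.95 (SE 0.313, 95% interval -1.58 to -0.31, limma adjusted p = 0.00907). Without replicate 1 of wild-type or of Dgcr8 KO the test was no longer passed (limma adjusted p = 0.0504 and 0.0783), and without replicate 2 of wild-type or of Dgcr8 KO the change was -1.27 and -1.23 and Nfkbie became the 1 gene of the 9 that was called.

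Ikbkb (mm10 chr8:22659212-22706589, minus strand) encodes the IKK-beta kinase of the canonical arm. Its total RNA was 32.3, 29.6 and 31.1 CPM in wild-type and 35.1, 32.2 and 34.5 CPM in Dgcr8 KO, with overlap, and a log2 change of 0.13 (95% interval -0.05 to 0.32, limma adjusted p = 0.197). The other core IKK genes gave values of similar size. Chuk, encoding IKK-alpha, had a log2 change of 0.14 (limma adjusted p = 0.0379), which did not pass with limma-trend (0.117), with a block by replicate number (0.0554) or without replicate 2 or 3 of wild-type or 1 or 2 of Dgcr8 KO (0.0660 to 0.150). Ikbkg, encoding the scaffold NEMO, had 0.12 (limma adjusted p = 0.158).

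**Figure D2:**
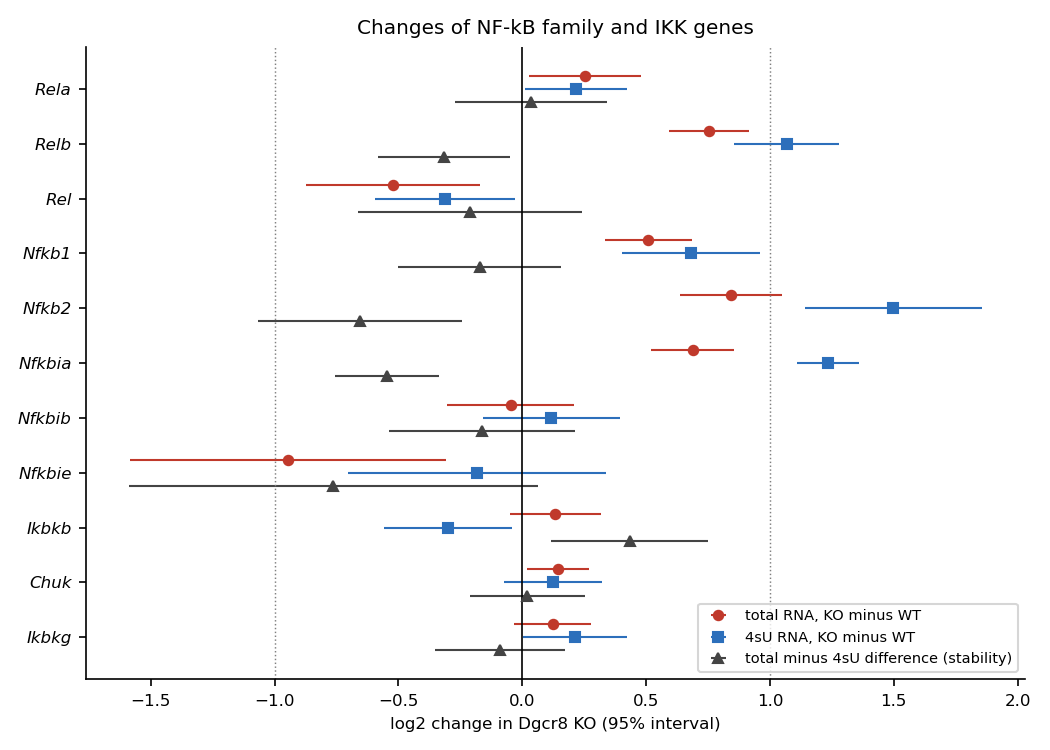
Log2 changes in Dgcr8 KO (x axis) of the 9 NF-kB genes and of Chuk and Ikbkg in total RNA (circles), in 4sU RNA (squares) and in the total to 4sU ratio (triangles), from 1 limma fit of all 12 libraries. Bars are unadjusted 95% intervals, and dotted lines mark log2 changes of -1 and 1. Relb, Nfkb2 and Nfkbia lie beyond 1 in 4sU RNA, where their changes were 1.07, 1.498 and 1.23, and below 1 in total RNA.

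The second comparison asked whether transcription of the same genes, measured as 4sU RNA, differed between the genotypes. Nascent Relb, Nfkb2 and Nfkbia were 2.10-fold to 2.82-fold higher in Dgcr8 KO and nascent Nfkb1 rose less, while Ikbkb fell. In this comparison 3 of 9 genes were called, all higher, where 14.8% of all genes were called, 9.5% higher and 5.27% lower. Without the limit on size 5 of 9 passed, 4 higher and 1 lower, against 56.3% of all genes (28.3% higher and 28% lower). Replicates did not overlap in 5 of 9 genes, 4 higher and 1 lower, and 59% of all genes had no overlap (29.6% higher and 29.4% lower). The median log2 change of the 9 genes was 0.22, beside -0.02 over all genes.

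Nfkbia had by far the most nascent RNA of the set. It had 161, 161 and 175 CPM in the wild-type 4sU libraries and 411, 360.3 and 398 CPM in Dgcr8 KO, the widest gap in CPM between genotypes of the 9 genes. This was a 2.35-fold rise, or 1.23 in log2 (SE 0.0607, limma adjusted p = 2.77e-17).

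Nascent Nfkb2 was low in wild-type cells, at 8.36, 7.32 and 11.9 CPM (52, 35 and 67 counts), and stood at 28.4, 23.3 and 26.1 CPM in Dgcr8 KO. The lowest Dgcr8 KO value was well above the highest wild-type value. This was a 2.82-fold rise, or 1.498 in log2 (SE 0.176, limma adjusted p = 1.34e-08), and its 95% interval of 1.139 to 1.86 overlapped that of Nfkbia (1.11 to 1.36).

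Relb had 34.9, 28.7 and 40.2 CPM in the wild-type and 82.2, 64.7 and 72.0 CPM in the Dgcr8 KO 4sU libraries, without overlap. Its log2 change was 1.07 (SE 0.104, limma adjusted p = 2.61e-10). Without replicate 2 of wild-type it was 0.95, below the limit for a call. Nfkb1 was even among wild-type libraries, at 15.6, 15.9 and 15.7 CPM, and higher in all Dgcr8 KO libraries, at 25.8, 23.1 and 27.0 CPM. Its log2 change was 0.68 (SE 0.136, limma adjusted p = 8.34e-05).

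For the remaining subunits nascent differences were small. Rela had 32.3, 38.9 and 43.8 CPM in wild-type and 46.0, 43.7 and 42.5 CPM in Dgcr8 KO 4sU RNA, and replicate 3 of wild-type reached into the Dgcr8 KO range. Its log2 change of 0.22 (95% interval 0.01 to 0.42) missed the threshold (limma adjusted p = 0.0667), although it passed with library size alone (0.0401) and without replicate 3 of wild-type (0.32, limma adjusted p = 0.0138), and ranged from 0.08 to 0.32 over leaving out replicates. Rel had 18.3, 17.6 and 19.2 CPM in wild-type and 15.0, 13.5 and 15.99 CPM in Dgcr8 KO, lower without overlap, and its log2 change of -0.31 (95% interval -0.59 to -0.03) also missed it (limma adjusted p = 0.0569), although it passed with RLE (0.0230) and upper-quartile (0.0265) scaling and without replicate 2 of wild-type (0.0495).

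Ikbkb had 20.7, 23.6 and 25.8 CPM in wild-type and 18.4, 16.98 and 21.3 CPM in Dgcr8 KO 4sU RNA, and the groups overlapped. The log2 change was -0.30 (SE 0.127, limma adjusted p = 0.0441). It no longer passed without replicate 2 or 3 of wild-type and without replicate 1 or 2 of Dgcr8 KO, with limma adjusted p from 0.0769 to 0.219, with library size alone (0.0707) and with no filter on low counts (0.137). Nfkbib (0.12, 95% interval -0.16 to 0.39) and Nfkbie (-0.18, -0.71 to 0.34) did not pass, and their replicates overlapped, as did those of Chuk (0.12, -0.07 to 0.32). Nascent Ikbkg was higher without overlap, with a log2 change of 0.21 (95% interval 0.00194 to 0.42) that missed the threshold (limma adjusted p = 0.0795) and passed with limma-trend (0.0421) and without replicate 1 of Dgcr8 KO (0.0415).

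The third comparison asked whether the ratio of total to 4sU RNA, which at steady state measures mRNA stability, differed between the genotypes, by the interaction term of the same fit. Stability of Nfkb2 and Nfkbia mRNA was lower in Dgcr8 KO: both transcripts gained less in total than in nascent RNA. These 2 of 9 genes passed the test, against 16.1% of all genes (5.02% higher and 11.1% lower), and 0 were called at a log2 change beyond 1, where 1.76% of all genes were (0.791% higher and 0.969% lower). With limma 4 of 9 genes had an unadjusted p under 0.05, and edgeR and DESeq2 also called 0. Replicate ratios did not overlap in 4 of 9 genes, against 34.3% of all genes (10.9% higher and 23.4% lower): Relb, Nfkb2 and Nfkbia were lower and Ikbkb higher. The 111 higher of 247 calls over all genes became 147 of 237 with RLE scaling, which moved the median stability change of all genes from -0.09 to -0.00257, so that directions of small changes depend on scaling.

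For Nfkbia the ratio changed by -0.55 (SE 0.103, limma adjusted p = 0.000264). Relative to the median of all genes, its log2 ratio was -1.90, -2.06 and -2.23 in the wild-type replicates and -2.57, -2.54 and -2.49 in Dgcr8 KO, so that every Dgcr8 KO replicate was below every wild-type replicate. This transcript was also the least stable of the 9 in both genotypes. It stood at percentile 13.4 of all tested genes in wild-type and 9.81 in Dgcr8 KO, or 3.80 and 2.19 of protein-coding genes.

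For Nfkb2, at the other end of the range, the ratio changed by -0.66 (SE 0.203, limma adjusted p = 0.0239). Its log2 ratio relative to the median was 1.505, 1.42 and 1.20 in wild-type and 0.76, 0.97 and 0.75 in Dgcr8 KO, without overlap. This was the most stable of the 9 transcripts in wild-type cells, at percentile 90.5 of all tested genes, and it stood at percentile 76.0 in Dgcr8 KO. The limma adjusted p rose to 0.129 without replicate 1 of wild-type, to 0.0587 and 0.0598 without replicate 1 and 3 of Dgcr8 KO and to 0.134 with no filter on low counts, and to 0.0595 and 0.0509 with RLE and upper-quartile scaling, while that of DESeq2 was 0.0714.

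Ikbkb, the 1 gene of the 9 with ESCC hexamers in its 3′ UTR, had a log2 stability change of 0.43 (SE 0.155, 95% interval 0.12 to 0.75), which missed the threshold (limma adjusted p = 0.0535). Its log2 ratio relative to the median was 0.55, 0.21 and 0.18 in wild-type and 0.90, 0.90 and 0.69 in Dgcr8 KO, higher without overlap. The underlying log2 changes of Ikbkb were 0.13 in total RNA (limma adjusted p = 0.197) and -0.30 in 4sU RNA (limma adjusted p = 0.0441). Ikbkg, which has 4 such hexamers, had a stability change of -0.09 (95% interval -0.35 to 0.17, limma adjusted p = 0.703). Whether the hexamers act on Ikbkb or Ikbkg was not tested. Since the 4sU and total library of a replicate were made from 1 RNA sample, a fit with that sample as a replicate block was also run. In it Ikbkb passed, with a change of 0.44 (limma adjusted p = 0.0375), as did Relb, with a change of -0.31 (limma adjusted p = 0.0436, against 0.101 without the block).

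The stability of the other 5 genes did not pass in either fit. Nfkb1 was stable in both genotypes, at percentiles 82.3 and 79.5 of all tested genes, with a change of -0.17 (95% interval -0.50 to 0.16). Rela and Rel were in the lower part of the range in wild-type (percentiles 27.0 and 24.5), with changes of 0.04 (-0.27 to 0.34) and -0.21 (-0.66 to 0.24). The interval of Rela holds 0, and its estimate turned negative without replicate 3 of wild-type or replicate 2 of Dgcr8 KO. Whether the miRNA matches in its 3′ UTR act on Rela was not tested, and these libraries do not measure translation. Nfkbib changed by -0.16 (-0.54 to 0.21) and Nfkbie by -0.76 (-1.59 to 0.06).

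**Figure D3:**
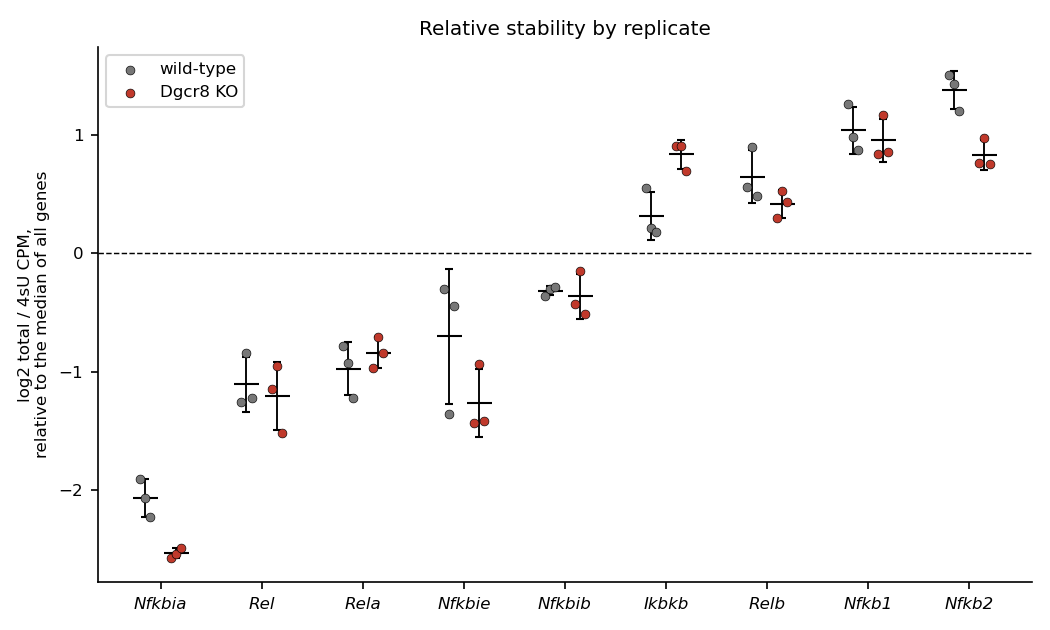
Log2 ratio of total to 4sU CPM relative to the median of all tested genes (y axis, 0 dashed) for the 9 NF-kB genes, ordered by their wild-type value. Points are the 3 replicates of wild-type (grey) and Dgcr8 KO (red), and bars are mean and SD. Nfkbia lies lowest in both genotypes, at -2.07 and -2.53, and Nfkb2 drops from 1.38 to 0.83 and Ikbkb goes from 0.31 to 0.83.

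The subunits compete for partners, so their transcripts were also compared as parts of a whole, as the share of each in the summed CPM per kb of the 5 subunits. The sum was 50.6 to 52.0 CPM per kb in wild-type and 78.1 to 81.5 in Dgcr8 KO total RNA, and 35.7 to 44.3 and 59.8 to 71.0 in 4sU RNA, so it was higher in every Dgcr8 KO library. Relb had the largest mean share in all 4 groups, with 50.9% ± 1.87 (SD, n = 3) in wild-type and 55.1% ± 1.78 in Dgcr8 KO total RNA, and 40.2% ± 3.58 and 50.5% ± 1.74 in 4sU RNA. In wild-type 4sU RNA its replicates (36.3% to 43.3%) overlapped those of Rela (32.6% to 40.1%), and Rela was higher in replicate 2. The share of Rela was lower in Dgcr8 KO, at 11.3% ± 0.893 against 14.7% ± 1.04 in total RNA and 24.95% ± 1.68 against 36.4% ± 3.73 in 4sU RNA, although its CPM was not, since shares add up to the whole. The share of Rel in the sum was 2.33% ± 0.360 in wild-type and 1.03% ± 0.128 in Dgcr8 KO total RNA.

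The gain of Nfkb2 showed mainly among nascent transcripts. Its share was 7.13% ± 0.985 in wild-type and 12.1% ± 0.217 in Dgcr8 KO 4sU RNA, without overlap, and 15.4% ± 2.08 and 17.6% ± 0.560 in total RNA, where the groups overlapped. Nfkb1 kept a similar share in total RNA, 16.7% ± 2.42 and 15.0% ± 1.03, and in 4sU RNA, 9.91% ± 1.18 and 9.43% ± 0.656. These shares were not tested.

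**Figure D4:**
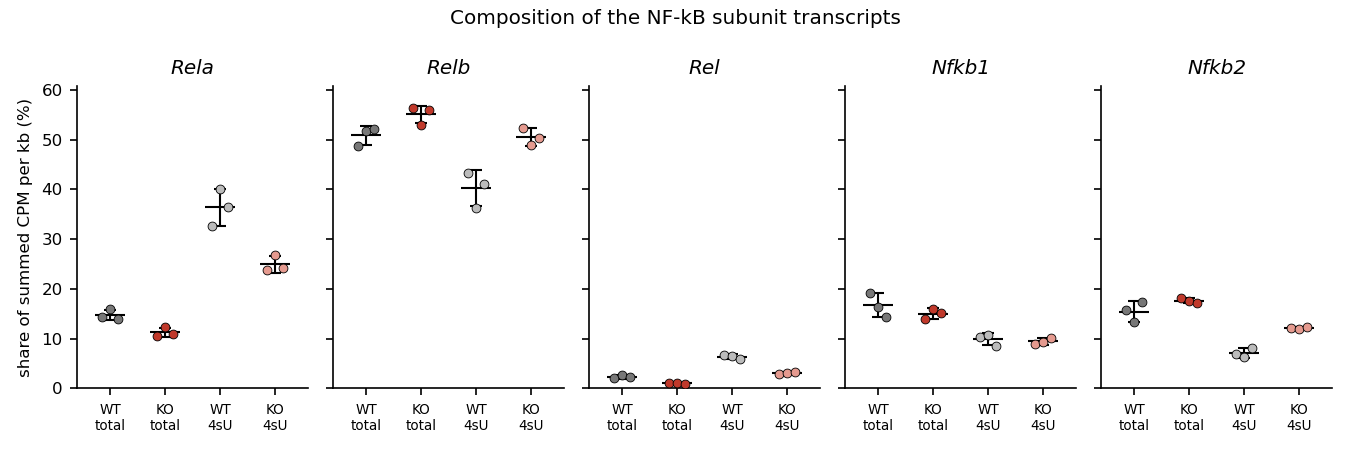
Share (%) of each NF-kB subunit gene in the summed CPM per kb of the 5 subunit genes, by group. Points are the 3 replicates, and bars are mean and SD. The mean of Relb is highest in all groups, with replicates that overlap those of Rela in wild-type 4sU RNA, and in Dgcr8 KO 4sU RNA it reaches 50.5% while Rela stands at 24.95%.

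The rest of the pathway was described with 5 lists of 93 genes in all, of which 63 passed the filter. In total RNA 10 of 63 were called (15.9%, beside 17.2% of all genes), 8 higher and 2 lower, and in 4sU RNA 9 of 63 (14.3%, beside 14.8%), 8 higher and 1 lower. For stability 1 of 63 was called (1.59%, beside 1.76%), and it was higher. These shares were all near those of all genes. The 30 genes not tested had at most 39 counts in any library, and they include the ligands Tnf, Lta, Ltb, Il1a and Il1b and the chemokine and cytokine targets Cxcl1, Cxcl2, Cxcl10, Ccl2, Ccl5 and Il6, with at most 22 and 18 counts in their lists.

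Upstream of IKK, 21 of 23 kinase and adaptor genes were tested, and 3 were called in total RNA (14.3%, beside 17.2% of all genes), all higher, where 9.33% of all genes were. Irak2, of the interleukin 1 and Toll-like receptor pathway, went from 14.5 ± 2.26 to 86.1 ± 3.09 CPM (SD, n = 3) in total RNA. Its log2 change there was 2.59 (limma adjusted p = 1.77e-19, SE 0.108). Its nascent change was 0.96, and Irak2 was the 1 gene of the lists called for stability, at 1.63 (limma adjusted p = 1.61e-10). Its partner kinase Irak4 rose by 1.57 in total and 1.71 in nascent RNA and the adaptor Ticam1 (TRIF) by 1.43 and 1.59, without a stability change that passed. Of the remainder, 5 passed higher and 5 lower in total RNA, making 8 higher and 5 lower of 21 beside 27.2% and 36.7% of all genes, among them Ripk1 at 0.81 and Tab2 at -0.41.

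The ubiquitin ligase list holds the subunits that mark IkB for degradation and the linear ubiquitin complex. In total RNA 6 of 8 genes passed, all lower, against 36.7% of all genes lower. Their log2 changes were between -0.47 and -0.26, with Btrc, a subunit that recognises phosphorylated IkB, at -0.47, Skp1a at -0.47 and Cul1 at -0.41. The other 2 were Fbxw11 at -0.05 and Sharpin at 0.13, which did not pass. In 4sU RNA 4 of the 8 passed, all lower, beside 28% of all genes lower, with Skp1a at -0.67.

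Of 14 tested feedback regulators 3 were called in total RNA (21.4%, beside 17.2% of all genes), 2 higher and 1 lower. The 2 higher ones, at the edge of the limit, were among 4 deubiquitinases. Tnfaip3 (A20) rose by 1.00 (SE 0.255, limma adjusted p = 0.000962) in total and by 1.29 in nascent RNA, and Cyld by 1.00 and 0.95. Otulin had a log2 change of -0.20 in total RNA (limma adjusted p = 0.102) and Otud7b of 0.19 (limma adjusted p = 0.00993). Transcripts of 3 nuclear IkB proteins had lower total RNA. Nfkbid had a log2 change of -1.30 (limma adjusted p = 0.000315) in total RNA and -0.89 in 4sU RNA, and Nfkbiz of -0.90 and -0.55, and all 4 of these values passed the test. Bcl3 had -0.41 in total RNA (limma adjusted p = 0.000755) and 0.13 in 4sU RNA, which did not pass (limma adjusted p = 0.254).

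Among receptors and ligands, 8 of 19 genes were tested. Il1r1, the interleukin 1 receptor, rose by 1.51 in total and by 2.81 in nascent RNA (limma adjusted p = 0.000133 and 2.65e-05), on 9 to 13 counts in wild-type total and 1 to 5 counts in wild-type 4sU libraries. With wild-type means of 1.55 and 0.54 CPM, it passed the filter of 3 CPM through Dgcr8 KO alone, and Tnfsf12 likewise passed through Dgcr8 KO 4sU RNA alone (means of 1.144 to 1.75 CPM elsewhere and 4.52 there), so that a rise is tied to the filter. Tnfrsf1b, the second TNF receptor, rose by 0.96 and 0.89. Tnfrsf11a (RANK), which in the same way passed through the wild-type libraries (means of 2.97 and 4.03 CPM, against 1.59 and 1.54 CPM), had log2 changes of -1.001 and -1.42 on 5 to 33 counts per library, the first of which did not pass with DESeq2 (adjusted p = 0.0667), with no filter on low counts (0.0570) or without replicate 1 or 3 of Dgcr8 KO (0.139 and 0.0615), while the ligand Tnfsf12 rose by 1.39 in nascent RNA on 6 to 24 counts and did not pass in total RNA (0.29, limma adjusted p = 0.535).

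Of 28 target genes 12 were tested, and 7 passed higher and 4 lower in total RNA, where 27.2% and 36.7% of all genes did. The median log2 change of these 12 was 0.29 in total and 0.72 in 4sU RNA, beside -0.09 and -0.02 over all genes. In 4sU RNA 3 were called (25%, beside 14.8% of all genes), all higher, beside 9.5% of all genes: Cxcl16 at 1.94 on 5 to 32 counts, the caspase-8 regulator Cflar at 1.38 and the apoptosis inhibitor Birc3 at 1.21. Cxcl16 had means of 0.62 to 1.98 CPM in the other groups and 4.98 CPM in Dgcr8 KO 4sU RNA, through which alone it passed the filter. In total RNA Cxcl16 rose by 1.64 and the transcription factor Irf1 by 1.20 (limma adjusted p = 3.59e-12). Icam1, a target that encodes an adhesion molecule, fell, by 0.20 in total and by 0.55 in nascent RNA. Of the 4 targets that passed lower in total RNA it had the smallest log2 change, and the largest was -0.78.

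**Figure D5:**
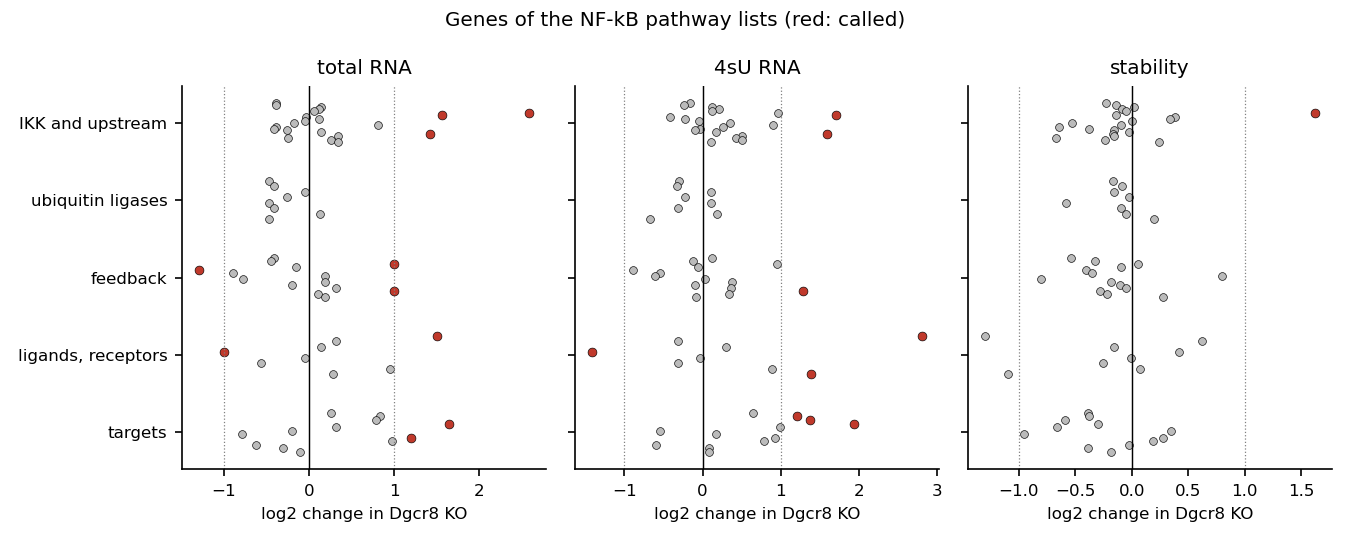
Log2 change in Dgcr8 KO (x axis) of the 63 tested genes of the 5 pathway lists in total RNA, 4sU RNA and the total to 4sU ratio. Each point is 1 gene, red points were called (adjusted p under 0.05 and a log2 change beyond 1), and dotted lines mark -1 and 1. The point farthest right is Irak2 at 2.59 in total RNA and Il1r1 at 2.81 in 4sU RNA, and the ubiquitin ligase genes lie between -0.47 and 0.13 in total RNA.

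Over the 12 libraries, the tested genes whose log2 CPM followed Relb most closely were Capn5 (Pearson's r = 0.987), Pik3cd (0.986) and Kank2 (0.985). The 12 points fall into 4 groups that share library type and genotype, and the values describe likeness only. Their log2 changes in total RNA were 0.60, 1.09 and 0.88, against 0.75 for Relb.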

How the data were processed

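RNA was measured in 12 libraries of wild-type and Dgcr8 KO mouse ESCs. The deposited table holds raw read counts for each gene. Per the file headers, the labels and the methods, the authors trimmed reads with cutadapt 1.14, mapped them uniquely to mm10 with STAR 2.5.3a and made the counts with featureCounts 1.5.3, strand-specifically, on GENCODE M14 without rRNA genes. Unique mapping under-counts near-identical genes. Library totals ranged from 4593914 to 9295245 counts. Titles gave the group and replicate number of each sample; 1 further label field names another gene for the Dgcr8 KO samples, and the titles and genotype were followed. The 92 spike-in rows, with 1 count in all, were left out, so no absolute scaling was possible. Every sample column was used.

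Genes with at least 3 CPM in at least 3 libraries were kept (14033 genes). Counts were scaled by TMM in edgeR 4.0.16 and fitted with limma 3.58.1 (voom, R 4.3.3) in 1 model with genotype, library type and an interaction term, as in the study, over all 12 libraries. The adjusted p is that of Benjamini and Hochberg over all genes tested, and a call also needed an absolute log2 change beyond 1. Intervals are 95% intervals on the moderated 31.2 degrees of freedom, unadjusted. Ratios of total to 4sU RNA used log2 of CPM plus 0.5. Symbols and 3′ UTRs were taken from GENCODE M21 (mm10) by stable identifier, which matched 51274 of 51467 genes. In 44665 of 44665 transcripts the 3′ UTR followed a stop codon. miRNAs and promoters came from RefSeq (GRCm38.p6), searched in Python with exact matches.

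The members and lists were chosen with earlier results of these data known. Named genes are the 9 members, Dgcr8, Chuk and Ikbkg, up to 6 called genes per direction and contrast from the lists, and the 3 genes most correlated with the member of the largest moderated t in total RNA; Ripk1, Tab2, Btrc, Skp1a, Cul1, Cyld, Tnfaip3, Nfkbiz, Tnfrsf1b, Birc3, Icam1, Otulin, Otud7b, Bcl3, Fbxw11 and Sharpin were named after their values were seen where this rule did not take them. Same-numbered 4sU and total libraries came from 1 RNA sample, which is the source of the pairing, and their deviations from group means correlated at 0.0181 to 0.116. Same-numbered libraries of the genotypes share only a number (-0.0898 to 0.0822). No 2 replicates agreed within sampling noise (lowest chi-square over degrees of freedom 1.58). Alternatives were edgeR, DESeq2 1.42.0, limma-trend, other scalings and filters, no limit on size, replicate blocks and leaving out each replicate. Scripts were tested on simulated counts.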

Additional observations from a re-analysis of the deposited data

Results flagged for a closer look

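By the interaction term of limma (adjusted p under 0.05), 7 of the NF-kB, pathway and co-varying genes named above, Dgcr8 included, changed to a different extent in total and in nascent RNA in Dgcr8 KO. Of all genes tested, 16.1% passed the same test. Most of the named genes did not pass, and the 7 were not compared with this share. Some of the named genes were chosen after their values were seen, so the 7 are listed as a description only. For Nfkb2 the log2 change was 0.84 in total and 1.498 in 4sU RNA, a difference of -0.66 (limma adjusted p = 0.0239, SE 0.203). For Nfkbia it was 0.69 in total and 1.23 in 4sU RNA, a difference of -0.55 (limma adjusted p = 0.000264, SE 0.103). Irak2, with its larger change in total RNA, changed by 2.59 and 0.96, a difference of 1.63 (limma adjusted p = 1.61e-10, SE 0.131). Dgcr8 itself changed by -1.60 and -0.51, a difference of -1.09 (limma adjusted p = 3.11e-08). The other 3 were Kank2 with a difference of -0.43, Tab2 with -0.38 and Bcl3 with -0.54 (limma adjusted p = 0.000521, 0.00398 and 0.00623). The total to 4sU ratios of Nfkb2 and of Nfkbia were lower in 3 of 3 Dgcr8 KO replicates than in every wild-type replicate.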

How the results depend on the processing

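Of 438 alternative values for the 27 log2 changes of the 9 NF-kB genes, 397 kept their direction and, where it was compared, their side of the threshold. A further 22 no longer had an adjusted p under 0.05, 15 newly had one, and 4 changed sign. Values relative to the median change of all genes were compared by direction only. The cause of these moves was not tested, except where the number of genes or samples differs by construction. Without the limit on fold change, 7 genes of the 9 passed in total RNA, 5 in 4sU RNA and 2 for stability. Of the 63 tested list genes 43, 34 and 11 passed. Over all genes tested the shares were 63.9%, 56.3% and 16.1%. With 3 CPM required in all 12 libraries, which leaves 10261 genes and drops Nfkbie, 5 list genes were called in total and 4 in 4sU RNA. Of the 10261 genes, 1045 and 837 were called in that setting. Leaving out 1 replicate gave 0 to 1 called members in total RNA (1, Nfkbie, without replicate 2 of either genotype), 1 to 2 members with an adjusted p under 0.05 for stability (1 without replicate 1 or 3 of Dgcr8 KO), and 1 to 2 called list genes for stability (2 without replicate 2 of wild-type or 3 of Dgcr8 KO). With no filter beyond 1 count, 1 member passed for stability. With the RNA sample as a replicate block, 4 members passed for stability (Relb and Ikbkb were gained). In that fit 2 list genes were called, beside 262 of all 14033 genes. Blocking by replicate number between genotypes gave 0, 3 and 0 called members in total RNA, 4sU RNA and stability, as without it. Ikbkb stability had an adjusted p under 0.05 in 9 alternatives. Sign changes were limited to small values. Rela stability ranged from -0.11 to 0.14 over leaving out replicates and Chuk stability from -0.0630 to 0.0620. Nfkbib in total RNA was 0.00559 with library size only and 0.0464 relative to the median change of all genes, and Ikbkg stability was 0.00172 relative to it, a setting chosen after seeing the data. Relative to protein-coding genes, the relative stabilities shifted down, that of Nfkbia in wild-type to -2.32 and of Ikbkb to 0.09. With 11 to 36 counts per total library, Nfkbie is the member whose depth limits precision most.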
